A study of Drosophila melanogaster with 12 samples.

Results

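The genes described here are 242 Drosophila melanogaster genes that carry only a CG number as their symbol. These genes had transcripts that were bright in testes mutant for sa but dim in testes mutant for aly or bam. They were chosen by measured values: each gene was represented by its brightest probe set, and the mean of the deposited intensities over 3 arrays had to be at least 500 in sa, at most 100 in aly and at most 60 in bam. Of 11982 genes on the array, 5209 had such a symbol, and 242 of these met all 3 limits. The differences among sa, aly and bam are therefore what picked the genes and are described without a test. The 3 yw arrays were under no limit and entered the choice only through the pick of the brightest probe set over all arrays. Picked without yw, the probe set differed in 1 gene, CG8851, which then missed the sa limit, and the other 241 met all limits.

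Whole testes of 1-day-old males were pooled for each RNA sample and hybridised to Affymetrix Drosophila Genome 2.0 arrays, 1 array per sample and 3 biological replicates per genotype. The mutants were transheterozygotes, named sa1/sa2, aly2/aly5P and bam1/bamΔ86 in the labels, and the control was the y,w strain, called yw here. The tissue held every cell type of the testis, and the mutants lack the germ cell stages beyond their block, so fewer cells of a type and less RNA per cell cannot be told apart in any value below. The labels do not say whether mutants and control shared a genetic background.

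Spermatogenesis in flies runs from stem cells through dividing spermatogonia to spermatocytes, which transcribe most of what the later, largely silent spermatids need. The gene bam is required to leave the spermatogonial divisions, so bam testes fill with spermatogonia-like cells. Germ cells mutant for aly or sa stop as primary spermatocytes. The product of aly is a subunit of tMAC, the testis counterpart of the Myb-MuvB regulatory complex. The product of sa is a testis paralog of a subunit of the general factor TFIID (a testis TAF). Both are needed for the spermatocyte transcription programme, and classical work placed some genes under aly but not under the testis TAFs.

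Intensities are on the authors' linear scale, where the array median over genes ran from 121.1 to 188.5. Over all probe sets the array median ran from 44.7 to 56.1. Differences are on log2(intensity + 16), which understates the change of dim genes, and brightness differs between probe sets for reasons unrelated to RNA amount. Where genes are picked below for bright values, this ranks their probe sets and not the amounts of their RNA. The sa transcript itself, read as a check of the label, measured 96.2 to 112 in the sa arrays against 1179 to 1518 in the yw arrays. The aly and bam transcripts do not check their labels, since aly was dim throughout (132 to 148 in the aly arrays, against 83.7 to 89.4 in yw) and bam was brighter in its own mutant (948 to 1174) than in yw (36.5 to 67.2). As markers of the tissue, 17 spermatid differentiation genes had a summed intensity of 58340 to 76039 in the sa arrays, 62875 to 66651 in aly, 651 to 736 in bam and 138700 to 153433 in yw. The sum of 5 spermatogonial markers (bam, vas, nanos, ovo and zpg) was 900 to 1006 in sa, 1208 to 1241 in aly, 9676 to 11426 in bam and 174 to 280 in yw.

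Among the 242 genes the middle value of the group means was 989 in sa, 36.4 in aly, 28.9 in bam and 4610 in yw. The sa means ran from 500.4 to 5635, the aly means from 16.5 to 98.1 and the bam means from 14.4 to 59.2, as the limits require. The yw means ran from 39.7 to 18550 and reached 1000 in 234 genes. The transcripts were thus dim in aly and bam testes, intermediate in sa testes and, with few exceptions, brightest in yw testes.

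**Figure D1:**
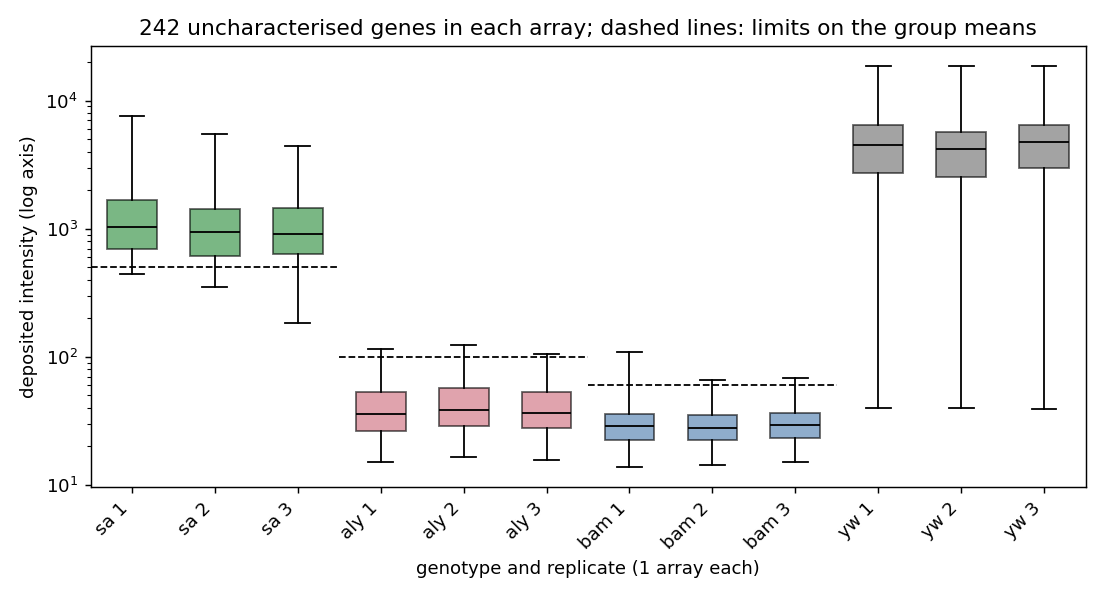
Deposited intensity (log axis) of the 242 genes in each of the 12 arrays, grouped as sa, aly, bam and yw. Boxes span the quartiles with the median as a line, whiskers reach the lowest and highest gene, and dashed lines mark the limits of 500, 100 and 60 on the group means; the yw medians of 4198 to 4767 lie above the sa medians of 904 to 1034.

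Arrays of a genotype gave similar medians over these genes. These were 1034, 943 and 904 in the sa arrays, 35.6, 38.4 and 36.2 in the aly arrays, 28.8, 27.9 and 29.4 in the bam arrays, and 4539, 4198 and 4767 in the yw arrays. The sa arrays were not alike gene by gene: replicate 1 was the brightest of the 3 for 146 genes, replicate 3 for 78 and replicate 2 for 18. In 42 genes at least 1 sa array fell under 500, in 8 at least 1 aly array exceeded 100, and in 11 at least 1 bam array exceeded 60. The least even was CG10734, at 1131, 513 and 183 in sa replicates 1, 2 and 3.

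The limits cut through a continuous range. Just inside the sa limit lay CG15425 with a mean of 500.4, CG8086 with 501 and CG30056 with 504, and just outside it CG11322 with 495, CG13481 with 493 and CG11298 with 492. On the aly limit CG7309 (92.3), CG14926 (97.4) and CG1724 (98.1) lay inside, and CG13008 (104), CG31948 (105) and CG18335 (105) outside. On the bam limit CG42846 (57.7), CG32628 (59) and CG8136 (59.2) lay inside, and CG1722 (60.4), CG12479 (65.5) and CG8838 (65.6) outside.

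The CG genes that were dim in bam and bright in sa did not all behave alike in aly. Besides the 242 genes at or under an aly mean of 100, another 84 lay between 100 and 500, and 169 had an aly mean of at least 500. Counted over doublings of the aly mean, 128 genes fell between 25 and 50 and 75 between 50 and 100, but 38 between 100 and 200, 33 between 200 and 400 and 34 between 400 and 800. A further 55 lay between 800 and 1600, so the counts dipped between 100 and 800 without a gap.

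**Figure D2:**
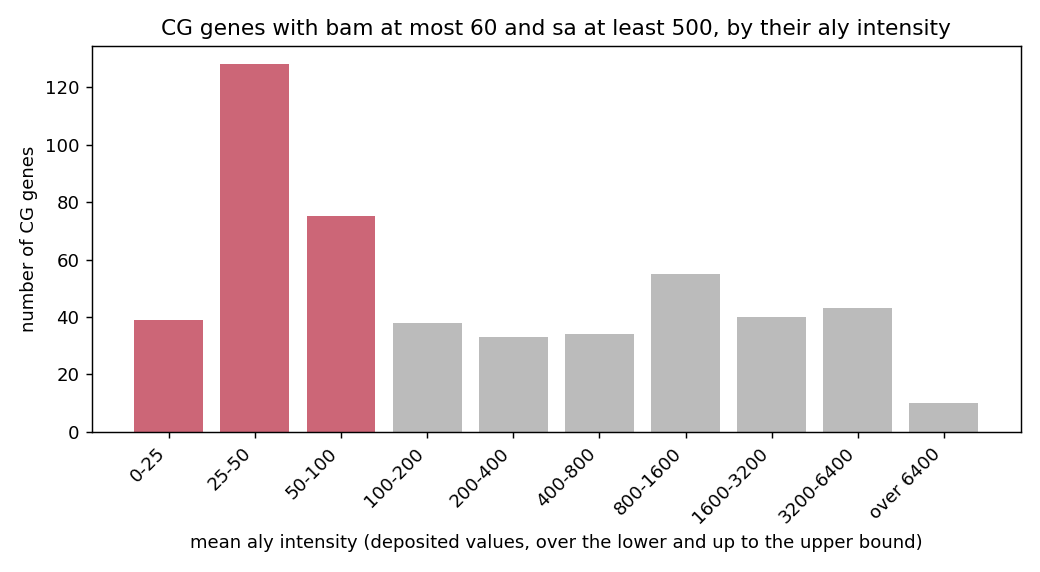
Number of CG genes with a bam mean of at most 60 and an sa mean of at least 500, by their mean aly intensity in doubling classes. Red bars, up to 100, are the 242 genes described here (39, 128 and 75), and grey bars are genes brighter in aly, with a second rise to 55 genes between 800 and 1600.

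Dim did not always mean equal in aly and bam, and array orders of this kind were also common over all genes. All 3 aly arrays lay above all 3 bam arrays in 105 of the 242 genes, all 3 bam arrays above all 3 aly arrays in 9, and the arrays overlapped in 128. Over all genes on the array the same orders were seen in 36.2% and 33.5%. The limits allowed means up to 100 in aly but only up to 60 in bam, which favours aly above bam. The order is therefore not read as a trait of these genes. The middle difference of aly minus bam was 0.19 on the log2 scale, and the middle difference of sa minus aly was 4.18. These values bear on the limits themselves and were not tested.

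The comparison of sa with yw asked how far transcript levels in sa testes reached those of testes that complete spermatogenesis. In sa testes 215 of the 242 genes were lower than in yw testes, 3 were higher and 24 were not called. A call required an adjusted p under 0.05 (limma, Benjamini-Hochberg over all 11982 genes) and a change of at least 2-fold. Over all genes 12.9% were called lower in sa and 23.9% higher. The sa arrays helped to choose the genes, and a floor on the sa mean favours genes that are high in sa. This count is therefore set beside all genes with an sa mean of at least 500, of which 14.9% were called lower and 46.7% higher. That set was under no bam limit, and its middle bam mean was 995 against 28.9 in the 242 genes. Among CG genes within the same bam and sa limits, 72.6% were called lower at an aly mean between 100 and 500. At an aly mean of at least 500 this share was 50.9%. The 14.9% is therefore no background for the bam limit, and the part of the limits in the count of 215 was not tested.

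The middle difference of sa minus yw over the 242 genes was -2.0 on the log2 scale, which is 4.01-fold lower, with quartiles of -2.53 and -1.46. Over all genes the middle difference was 0.08. The sa mean amounted to less than 25% of the yw mean in 124 genes, to 25 to 50% in 92, to 50 to 100% in 17, and to 100% or more in 9. All 3 sa arrays lay below all 3 yw arrays in 229 genes, all 3 lay above in 6, and the arrays overlapped in 7. Over all genes these shares were 29.0% for sa below yw and 41.7% for sa above yw.

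The scale between arrays bears on these values. With arrays centred on their all-gene median the middle of all genes was -0.31 and that of the 242 genes -2.40. With arrays centred on 26 ribosomal protein genes these were -1.16 and -3.25. Whether the RNA of these 26 genes was itself steady between genotypes was not tested. Relative to all genes the 242 genes lay at -2.09, a value that both centrings leave as it is by construction, since they shift all genes of an array alike. Of all calls in the comparison 64.9% were higher in sa on the deposited scale, 47% with median centring and 5.26% with ribosomal centring. The number of the 242 genes called lower was 226 with median and 235 with ribosomal centring.

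**Figure D3:**
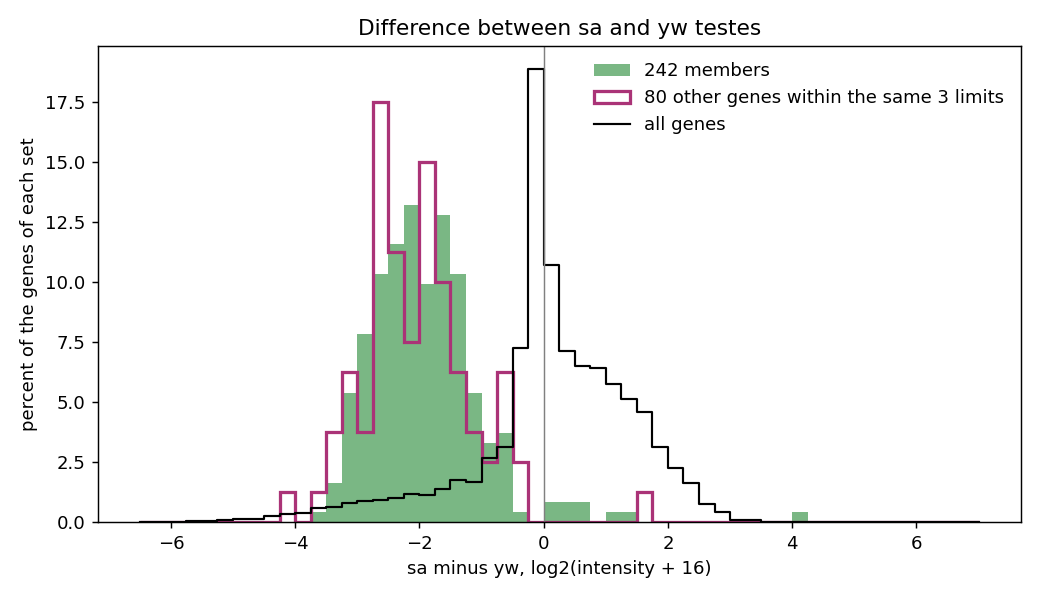
Distribution of the sa minus yw difference on log2(intensity + 16), in percent of each set of genes. The filled histogram holds the 242 CG genes with a median of -2.0, the outlined histogram the 80 genes with other symbols within the same limits with a median of -2.11, and the black line all 11982 genes with a median of 0.08.

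At the low end stood CG10734, CG15425, CG5968 and CG42850. CG10734 measured 1131, 513 and 183 in sa against 5788, 6484 and 6995 in yw. CG15425 measured 601, 489 and 412 in sa against 6116, 5132 and 5663 in yw. All 3 sa arrays of both genes lay far below every yw array, although the sa arrays of CG10734 spread over a wide range. The differences were -3.70 ± 0.45 for CG10734 and -3.46 ± 0.13 for CG15425 (log2 difference ± SE, limma adjusted p = 2.17e-05 and 2.03e-09).

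CG5968 measured 701, 512 and 606 in sa against 8681, 5227 and 6657 in yw, a 10.9-fold lower level in sa (limma adjusted p = 1.27e-08). CG42850 measured 707, 528 and 370 in sa against 5124, 4633 and 5868 in yw, or 9.75-fold lower (limma adjusted p = 4.20e-08). In aly these genes stayed dim, with means of 58 for CG5968 and 19.7 for CG42850. The bam means were 19.1 for CG5968 and 20.6 for CG42850. The groups of sa and yw did not overlap in either gene. A further probe set for CG42850 stayed at 19 in sa and 23.6 in yw, so its call rests on the brighter one.

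At the other end stood the genes that were brighter in sa than in yw testes. CG5397 measured 974, 950 and 1210 in the sa arrays, 39.9, 41.1 and 54.1 in aly, 57, 45.9 and 57.6 in bam, and 39.9, 40.1 and 39 in yw. It was thus as dim in yw as in aly and bam, with a difference of 4.24 ± 0.12 (log2 difference ± SE, limma adjusted p = 6.24e-10). Among the 242 genes it was the only one with a yw mean under 100. CG42846 measured 555, 543 and 493 in sa against 176, 148 and 233 in yw, with a difference of 1.46 (limma adjusted p = 3.06e-06). With ribosomal centring this difference was 0.21 and no longer called.

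CG15399 measured 2606, 3113 and 3033 in sa against 1626, 979 and 1439 in yw. Its difference of 1.13 was called (limma adjusted p = 7.65e-05), but it was 0.73 and not called with median centring, 0.92 and not called without yw replicate 2, and -0.11 with ribosomal centring. CG33252 measured 3177, 3188 and 2637 in sa against 2118, 1475 and 1867 in yw, and its difference of 0.73 missed the 2-fold minimum (limma adjusted p = 0.00267) and was -0.52 with ribosomal centring. Both genes had all 3 sa arrays above all 3 yw arrays on the deposited scale. Only CG5397 was called higher under every scaling tried.

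**Figure D4:**
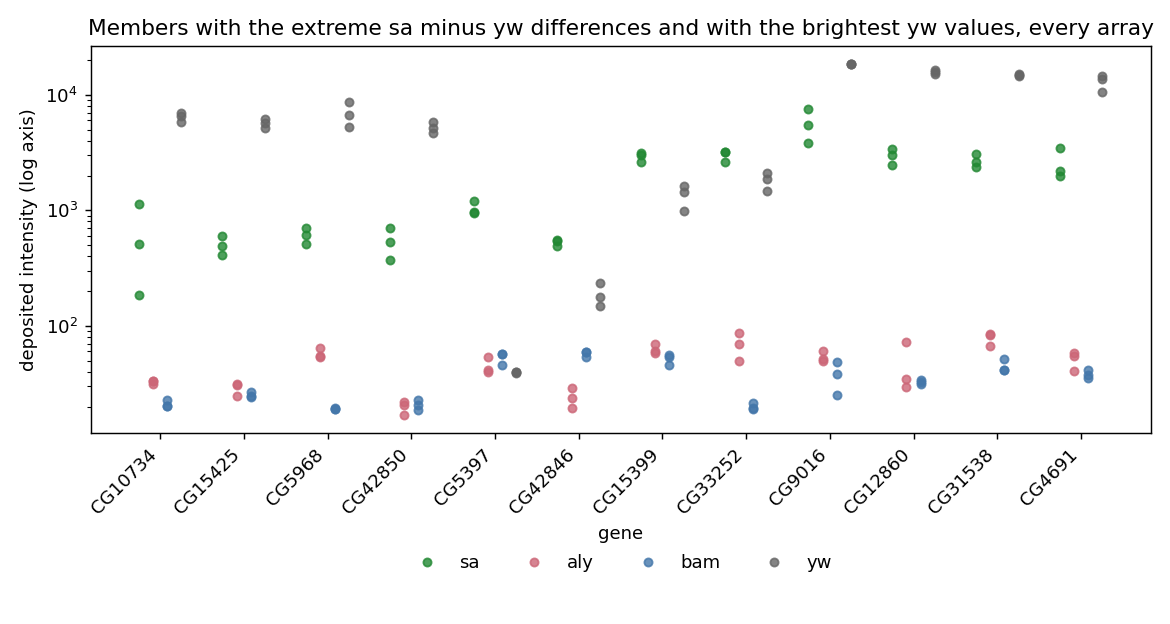
Deposited intensity (log axis) in every array for the 4 genes with the lowest sa minus yw difference (CG10734 to CG42850), the 4 with the highest (CG5397 to CG33252) and the 4 with the brightest yw values (CG9016 to CG4691). Each point is 1 array, coloured as sa, aly, bam or yw; CG5397 is the gene whose yw arrays, at 39 to 40.1, lie among its aly and bam arrays.

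The probe sets with the brightest yw values were those of CG9016, CG12860, CG31538 and CG4691. CG9016 measured 7568, 5507 and 3830 in sa against 18470, 18547 and 18633 in yw, or 3.41-fold lower in sa. Its probe set is of the kind (_s_at) that can detect transcripts of several genes. CG12860 measured 3362, 3004 and 2477 in sa against 16271, 15215 and 15756 in yw, or 5.36-fold lower. For both genes every sa array lay below every yw array. CG31538 measured 3075, 2385 and 2612 in sa against 14540, 14793 and 15133 in yw (5.51-fold lower), and CG4691 measured 3480, 2178 and 1987 against 10607, 14573 and 13724 (5.17-fold lower). The limma adjusted p of these 4 genes ran from 1.00e-08 to 2.31e-05.

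The probe sets with the brightest sa values were those of CG9016, CG3213, CG14926, CG16719, CG30039, CG12679, CG3687 and CG31870. CG3213 measured 5531, 4560 and 4441 in sa against 9516, 8641 and 10045 in yw. Its difference of -0.96 (limma adjusted p = 3.62e-04) missed the 2-fold minimum, but passed it without sa replicate 1 (-1.06) and without yw replicate 2 (-1.02). CG16719 (4025, 3815 and 3466 in sa against 6463, 6185 and 6999 in yw), CG12679 (3475, 3231 and 3817 against 7132, 5435 and 6566) and CG3687 (3428, 3149 and 3191 against 5641, 4700 and 4973) also missed it, with differences of -0.80, -0.85 and -0.64. In each of these genes the sa and yw arrays did not overlap, and with median centring all 4 were called.

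CG14926 measured 4881, 3480 and 3561 in sa against 13822, 11281 and 12129 in yw (3.14-fold lower). CG30039 measured 4645, 3229 and 2662 in sa against 12796, 11375 and 11635 in yw (3.48-fold lower). CG31870 measured 3697, 2735 and 2943 in sa against 11813, 8383 and 9940 in yw (3.20-fold lower). All 3 were called, with limma adjusted p from 1.75e-06 to 8.79e-06.

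By size of the difference, 18 genes were at least 8-fold lower in sa than in yw: CG5968, CG10164, CG10734, CG13186, CG13725, CG13838, CG15425, CG30056, CG30278, CG31204, CG31275, CG31459, CG31546, CG32161, CG32945, CG34161, CG34292 and CG42850.

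Another 104 genes were 4-fold to 8-fold lower in sa. They comprised CG2209, CG2291, CG2964, CG3473, CG3483, CG3492, CG3517, CG3788, CG4286, CG4375, CG4520, CG4631, CG4691, CG4983, CG4995, CG5435, CG5539, CG5561, CG5565, CG5614, CG5762, CG6262, CG6380, CG6527, CG6661, CG7164, CG7196, CG7514, CG7634, CG7755, CG8086, CG8136, CG8138, CG8245, CG8476, CG8564, CG8746, CG9010, CG9173, CG9550 and CG9632. They further comprised CG10177, CG10919, CG11145, CG11373, CG11656, CG12035, CG12069, CG12307, CG12620, CG12860, CG13110, CG13168, CG13330, CG13442, CG13476, CG13539, CG13544, CG13898, CG14297, CG14355, CG14448, CG14644, CG14658, CG14668, CG14689, CG14718, CG14974, CG15124, CG15286, CG15475, CG15530, CG15543, CG15605, CG16957, CG17564, CG17744, CG18371 and CG18418. The rest of this class were CG30270, CG30334, CG30350, CG30369, CG30376, CG31007, CG31088, CG31093, CG31407, CG31482, CG31538, CG31697, CG31735, CG31802, CG31820, CG31882, CG32240, CG32459, CG32655, CG32847, CG33060, CG33189, CG42355, CG42650 and CG42855.

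A class of 93 genes was 2-fold to 4-fold lower in sa. It held CG1724, CG1958, CG2577, CG2652, CG2750, CG2854, CG3092, CG3222, CG3345, CG3494, CG3557, CG3708, CG4218, CG4955, CG5043, CG5050, CG5906, CG6083, CG7140, CG7251, CG7264, CG7309, CG7848, CG8851, CG9014, CG9016, CG9030, CG9106, CG9875 and CG9970. It also held CG10589, CG10750, CG10841, CG10934, CG10950, CG11018, CG11635, CG11703, CG12078, CG12126, CG12229, CG12231, CG12395, CG12535, CG12617, CG12637, CG12682, CG13010, CG13385, CG13991, CG14151, CG14540, CG14589, CG14739, CG14891, CG14926, CG15128, CG15196, CG15296, CG15395, CG15468, CG15631, CG15878, CG16894, CG16984, CG17237, CG17349, CG18063 and CG18568. Its other genes were CG30039, CG30192, CG30324, CG30393, CG30412, CG30416, CG30487, CG31406, CG31787, CG31870, CG32026, CG32236, CG32436, CG32445, CG32450, CG32461, CG32588, CG32628, CG32650, CG32718, CG43058, CG43069, CG45067 and CG46441.

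Of the 24 genes that were not called, 18 had a difference below 0. These were CG3213, CG3687, CG3698, CG4661, CG4744, CG8509, CG11630, CG12679, CG14840, CG16719, CG18266, CG18545, CG30184, CG31055, CG31465, CG32568, CG33490 and CG34029. The other 6, CG1428, CG1494, CG6675, CG12446, CG14456 and CG33252, had a difference above 0. The adjusted p was under 0.05 in 20 of the 24 genes, which missed the call through the fold minimum, and not in CG31465, CG12446, CG14456 and CG1428. CG12446, at 746, 824 and 933 in sa against 960, 595 and 943 in yw, had overlapping groups (difference 0.03, limma adjusted p = 0.894).

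The RefSeq gene table (Release 6 assembly) held 239 of the 242 and listed all 239 as protein-coding. Its synonyms give a protein name for a few, picked here after their values were seen. They include Ube2N for CG3473, the name of a ubiquitin-conjugating enzyme, at 761 in sa and 3091 in yw, and LMW-PTP for CG14297, a low-molecular-weight protein tyrosine phosphatase, at 1487 in sa and 6540 in yw. CG12069, with the synonym Pka-like, was at 740 in sa and 3671 in yw, and CG8476, listed as Dnajb4 after a family of chaperone partners, at 1101 in sa and 7980 in yw. All 4 were called lower in sa, as were 88.8% of the 242 genes, so this is not read as a trait of the 4. Such synonyms were also seen for CG6661, CG13898, CG17237 (-1.27) and CG14891 (-1.23), which were called lower too.

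Some of the genes lie side by side. In the order of protein-coding genes in the same table, 25 of the 242 formed 12 runs of direct neighbours, 11 of them pairs and 1 a run of 3 (CG2291, CG12126 and CG30376). Whether this exceeds the number for genes placed at random was not tested. CG3492 measured 1447, 1095 and 1650 in sa against 6431, 5961 and 6995 in yw, and its neighbour CG3494 measured 2506, 2221 and 2309 in sa against 7883, 7013 and 7829 in yw. Both were called lower in sa, by 4.64-fold and 3.21-fold. CG30412 (2803, 2755 and 2667 in sa against 9046, 8410 and 9527 in yw) and CG30416 (619, 490 and 423 against 1307, 2155 and 1833) were lower by 3.26-fold and 3.35-fold.

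Neighbours also differed in size of change. CG7251 measured 1557, 1262 and 1660 in sa against 6519, 5389 and 5842 in yw and was 3.94-fold lower. Next to it CG18266, at 3181, 3019 and 2971 in sa against 4530, 4826 and 4591 in yw, had a difference of -0.60 and was not called. CG8851, the neighbour of CG3213, measured 958, 844 and 803 in sa against 1693, 2504 and 2574 in yw and was 2.53-fold lower.

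Most genes rested on 1 probe set, since 235 of the 242 had no other. Of the 7 with a pair of probe sets, CG12535, CG31406, CG8851 and CG6262 had a dimmer one with the same direction, with sa minus yw differences of -1.66, -1.64, -1.73 and -3.39. The dimmer probe sets of CG42355, CG42850 and CG8086 had no genotype mean above 32.2. By its name the probe set was of the kind that can detect transcripts of several genes (_s_at) in 7 genes, and of the kind shared by several transcripts of 1 gene (_a_at) in 18.

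Genes with a symbol other than a CG number that met the same 3 limits were read beside the CG genes. There were 80, with a middle sa minus yw difference of -2.11, and 70 were called lower in sa, 1 higher and 9 not called. They include the non-coding RNA genes asRNA:CR32252 and lncRNA:CR33218, so not all have a known name. The 15 whose probe sets had the brightest sa values were Porin2, tomboy20, robl62A, Atg8b, sinah, COX5BL, Tsp33B, glob2, Rsph3, boil, Tektin-A, salto, Mst27D, ATPsynCF6L and Prosbeta5R1. Porin2, a paralog of the mitochondrial outer-membrane channel, was at 3423 ± 303 in sa against 7755 ± 602 in yw (mean ± SD, n = 3 arrays each), a call lost with quantile normalization (log2 difference -0.99). The import receptor paralog tomboy20 was at 2744 ± 338 in sa against 8960 ± 567 in yw. The axonemal gene Tektin-A was at 1461 ± 247 in sa against 5278 ± 762 in yw. Tsp33B (-0.54) and boil (-0.69) were not called.

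Groups among these 80 genes were formed after their values were seen. Of all 80 genes 87.5% were called lower in sa, and no group was tested against this share. Genes grouped as mitochondrial proteins or their testis paralogs numbered 14, and all 14 were called lower in sa, with differences from -2.72 to -1.18. They include the cytochrome oxidase paralogs COX5BL, COX7AL, COX6CL and COX6AL. The group is not a full list and leaves out P5CDh2 (-3.02). Of 9 genes of axoneme dyneins, radial spokes, tektins and their assembly factors 8 were called lower, and Dnaaf3 (-0.88) was not. Of 4 proteasome paralogs 3 were called lower, and Rpn13R (-0.75) was not. All 5 translation factor and ribosomal protein paralogs were called lower, from RpL10Aa at -3.17 to eIF3g2 at -1.01. The cup genes c-cup, w-cup and wa-cup, transcribed after meiosis in wild-type testes, were all called lower, with differences of -2.38, -4.01 and -2.24. The sa arrays of w-cup spread widely, at 1424, 539 and 231 in replicates 1, 2 and 3, and its difference had an SE of 0.46. The exception in the other direction was Dh44, a diuretic neuropeptide gene, at 586 ± 34.2 in sa against 180 ± 27.1 in yw (difference 1.63, and 0.38 and not called with ribosomal centring).

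Regulators and known targets of the same pathway were read from lists, here for sa against aly, where 11.9% of all genes were called higher and 7.90% lower. The middle difference of all genes was -0.10, and -0.58 with median centring. Of 5 measured meiotic division regulators 3 were called higher in sa and 0 lower. The B-type cyclin CycB was at 665 ± 9.03 in sa against 65.1 ± 10.3 in aly, the RNA-binding protein gene bol at 2280 ± 1008 against 359 ± 14.9, and the Cdc25 phosphatase twe at 154 ± 8.64 against 62.9 ± 8.65 (mean ± SD, n = 3 arrays each). With median centring 2 were called higher and 1 lower, since twe (0.64) lost its call and Rbp4 was called lower (-1.13). The twe call was also lost with quantile normalization (0.65), where fest passed. None of these genes met the 3 limits, since CycB and twe were brighter than 60 in bam and bol was brighter than 100 in aly.

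Of 17 measured spermatid differentiation genes 5 were called higher in sa than in aly and 1, nsr, lower. With median centring 4 were called higher and 3 lower, since Mst87F (0.60) lost its call and Mst84Dd (-1.23) and Mst98Cb (-1.27) were called lower. The sperm chromatin gene Mst77F was at 7164 ± 1528 in sa against 199 ± 27.7 in aly, djl at 576 ± 242 against 19 ± 1.61, the mitofusin fzo at 426 ± 60 against 32.6 ± 8.80, and dj at 114 ± 46.3 against 17 ± 0.151. Only djl of this list met the 3 limits. In contrast, Mst98Ca was at 8091 ± 684 in sa against 7996 ± 522 in aly (difference 0.02). Of 9 tMAC genes 0 were called higher and 3 lower in sa (topi at -3.81, vis at -2.09 and tomb at -1.27), and of 5 testis TAFs 1 was called higher, Taf12L at 1.2, a call lost with median centring (0.72). The testis TAFs mia (-1.17) and the mutated sa (-5.91) were lower. With median centring 7 of the 9 tMAC genes were called lower, with comr, achi, wuc and Caf1-55 added, and 4 of the 5 testis TAFs, with can and nht added. With ribosomal centring 3 of the 5 testis TAFs were called lower, with can added.

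CG genes brighter in aly gave smaller differences between sa and yw. Of the 169 with an aly mean of at least 500, 86 were called lower in sa than in yw and 14 higher, with a middle difference of -1.03. Of the 84 with an aly mean between 100 and 500, 61 were called lower and 0 higher, with a middle difference of -1.62. These values are given beside the 215 of 242 as a description, and the difference between the classes was not tested.

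Markers of other cells were read beside the comparison of sa with yw on the deposited scale, where 12.9% of all genes were called lower in sa and 23.9% higher. Of 8 measured muscle markers 1 was lower in sa and 0 higher, and their summed intensity was 2112 to 3153 in the sa arrays and 2313 to 3750 in the yw arrays. Of 11 accessory gland markers 0 were called, with a sum of 10528 to 23148 in sa and 11778 to 69650 in yw. Fat body markers were lower in 2 of 3, with a sum of 431 to 761 in the sa arrays, against 1854 to 3379 in the yw arrays. Of 2 ejaculatory duct and bulb markers 1 was lower, with a sum of 245 to 357 in the sa arrays, against 442 to 12493 in the yw arrays. Hemocyte markers were higher in 2 of 5, at 454 to 550 in sa and 239 to 269 in yw. Of 3 cyst cell and 2 hub markers 0 were called, at 489 to 549 and 80 to 91.3 in sa and 228 to 458 and 85.1 to 147 in yw. Spermatogonial markers were higher in 3 of 5, at 900 to 1006 in sa and 174 to 280 in yw. The markers called higher were bam (2.17), zpg (2.04), nanos (1.82), Pxn (1.26) and Ppn (1.08). Ribosomal centring moved the middle of all genes from 0.08 to -1.16, and the same shift takes each of these below the 2-fold minimum. The part of these cells in the values of the 242 genes was not tested.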

How the data were processed

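The authors deposited 1 linear intensity per probe set for each of 12 arrays. Per the submitters' processing notes and the design text, MAS5, RMA and limma were used; which of these gave the deposited intensities, and the versions, are not given in the sources used here. Of 18952 probe sets, 183 controls were left out, 13647 had 1 gene symbol, 402 several and 4720 none. Symbols were looked up in RefSeq's Release 6 table, where 13544 probe sets matched and no symbol differed. Each of 11982 genes was represented by its brightest probe set, by mean log2(intensity + 16).

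One linear model over the 12 arrays gave each genotype its mean, without covariates (lmFit and eBayes of limma 3.58.1 under R 4.3.3). The model was tested on simulated data with 200 changed genes, where 98.7% of changes of 4-fold or more were called in the right direction. Of all 200, which included changes of 2-fold, 170 were called so. Changes at the 2-fold minimum were thus called less often than larger ones. The simulation gave a gene the same spread in all genotypes and no shift of scale between arrays. It therefore does not bear on unequal spread or on the scale. No dim gene was filtered out. An array has no read depth to report, and the small number of 3 arrays per genotype limits precision. The 242 genes, the lists and the tests were chosen with earlier results of these data known. Genes were named by a rule: all 242 once, with arrays for the brightest, the extreme and neighbouring ones, and in lists those with the largest differences. Plots used matplotlib 3.10.9. Alternatives are described in the closing section.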

Additional observations from a re-analysis of the deposited data

How the results depend on the processing

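The direction and size of the main counts held under most settings. The number of genes meeting the limits was 242, and it was 199 with quantile normalization, 184 when every single array had to meet its limit, 165 with stricter limits and 301 with looser ones; with the brightest probe set picked without yw, a setting chosen after seeing the data, it was 241; leaving out a replicate number gave 233 to 242, of which 226 to 238 were among the 242. The count of these genes called lower in sa than in yw was 215, between 213 and 235 in all settings (214 to 219 with 1 array left out), and the count called higher was 3 (2 to 3 with 1 array left out). With no fold minimum 6 of them were called higher, and over all genes 4896 were higher and 2865 lower. Ribosomal protein centring gave 1 of them higher, and over all genes 371 higher and 6687 lower, while median centring gave 1791 of all genes higher; on the deposited scale 2861 of all genes were higher and 1548 lower. Under ribosomal centring CG15399 turned to -0.11 and CG33252 to -0.52. Of 468 values for 26 named genes under 18 settings, 446 kept direction and call, 17 passed the fold minimum or threshold that they had missed, 3 lost a call and 2 reversed. With the replicate number as a block the counts were 215 lower and 3 higher among the 242 genes; the numbers were not treated as pairs, since same-numbered sa and yw arrays deviated together at r = -0.26, 0.16 and -0.14 for replicates 1, 2 and 3. With 3 arrays per genotype, single genes with overlapping arrays, such as CG12446, are not resolved.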
